A study of Arabidopsis thaliana with 12 samples.

Results

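miR164 is a plant microRNA that silences transcription factors of the NAC family. Its entries were followed in small RNA libraries of Arabidopsis thaliana, ecotype Col-0. They were found by the miRNA number in the entry name, on either strand. This gave 4 of the 240 different entries listed over all libraries, and each of the 4 was listed in each of the 12 libraries. The first entry, ath-miR164a;ath-miR164b-5p, is shared by the products of 2 genes and called miR164a/b here. The second is ath-miR164c-5p, called miR164c here. The last 2, ath-miR164b-3p and ath-miR164c-3p, come from the opposite arm of the precursor.

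A plant microRNA is cut as a duplex from a hairpin precursor. One strand, the guide, is kept by an ARGONAUTE protein, mostly ARGONAUTE1 (AGO1), and pairs with target mRNAs, which are then cut or kept from translation. The partner strand is usually lost. The precursor genes of miR164 are MIR164a (AT2G47585), MIR164b (AT5G01747) and MIR164c (AT5G27807), and their guide strand comes from the 5p arm. miR164a and miR164b have the same mature sequence, and that of miR164c is close to it but not the same. Known targets include CUC1 (AT3G15170) and CUC2 (AT5G53950), which set organ boundaries, NAC1 (AT1G56010), which acts in auxin-dependent lateral root formation, and ORE1 (AT5G39610), which promotes leaf ageing. Loss of MIR164c, also called EARLY EXTRA PETALS 1, gives flowers with additional petals.

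The 12 libraries formed 6 groups of 2. In 4 groups, GFP-tagged AGO1 was pulled down with a GFP trap from roots of 9-day-old plants. They were the ktn1-20 mutant (ktn1) with ACL5::GFP-AGO1, wild type (WT) with ACL5::GFP-AGO1, ktn1 with EN7::GFP-AGO1 and WT with EN7::GFP-AGO1. The other two groups were total small RNA of whole 14-day-old seedlings, ktn1 and WT, with no transgene. The ACL5 promoter drives the fusion in metaxylem and procambium, and the EN7 promoter drives it in the endodermis. KTN1 (AT1G80350) encodes a subunit of katanin, which severs microtubules, and the design asks how its loss changes the AGO1-bound miRNAs of each layer. Tables of mature miRNAs hold no marker transcript, so neither the layers nor the genotypes could be checked from them. No pull-down without the fusion was analysed here. Nothing in the labels says whether replicates were separate plants, so p-values measure only the spread between these libraries.

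Values are reads per 1000000 reads (RPM). The lowest value above 0 in each library was assumed to be 1 read. On that assumption the RPM were taken over totals of 5804745 to 13004041 reads for AGO1 and 13769316 to 44332443 reads for seedlings. Listed miRNAs made up 59.5% and 53.6% of these reads in EN7 ktn1, against 30.7% and 37.2% in EN7 WT, and 25.1% to 32.5% in the 4 ACL5 libraries. Over 81 tested entries outside miR165 and miR166, EN7 WT replicate 1 lay at -5.46 on the first principal component, on the side of the ACL5 libraries, and ACL5 ktn1 replicate 2 lay at 0.31. The other ACL5 libraries lay between -8.66 and -7.34 and the other EN7 libraries between 8.09 and 13.0. The main differences between AGO1 libraries are also given without this pair. The pair was picked after the data were seen, by its place on a component that parts the layers and includes miR164. Fits without it are therefore no independent support for a layer difference.

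miR164a/b was the main entry in every library. In ACL5 libraries it held 612 and 1582 RPM in ktn1, against 3018 and 1616 RPM in WT. In EN7 libraries it held 488 and 140 RPM in ktn1, against 489 and 401 RPM in WT. Every ACL5 library was above every EN7 library. In seedlings it held 56.4 and 38.0 RPM in ktn1, against 75.6 and 66.4 RPM in WT. An RPM value cannot tell more cells that hold the fusion from more miR164 in each cell. By abundance it stood between place 11 and place 21 of 185 entries in ACL5 libraries, between 19 and 29 of 180 in EN7 libraries and between 24 and 30 of 223 in seedlings.

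miR164c was less abundant than miR164a/b in each library. In ACL5 libraries it held 71.5 and 91.5 RPM in ktn1, against 280 and 185 RPM in WT. In EN7 libraries it held 64.1 and 23.8 RPM in ktn1, against 327 and 96.4 RPM in WT. Over the AGO1 libraries of both lines the genotypes, not the layers, were separate in RPM: each ktn1 library was below each WT library. The nearest, ACL5 ktn1 replicate 2 (91.5 RPM) and EN7 WT replicate 2 (96.4 RPM), were closer together than the replicates of any of these groups. As a share of all miRNA RPM their order was reversed, at 0.0285% and 0.0259%. In seedlings miR164c held 14.3 and 12.1 RPM in ktn1, against 12.4 and 11.3 RPM in WT, and the genotypes overlapped.

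**Figure D1:**
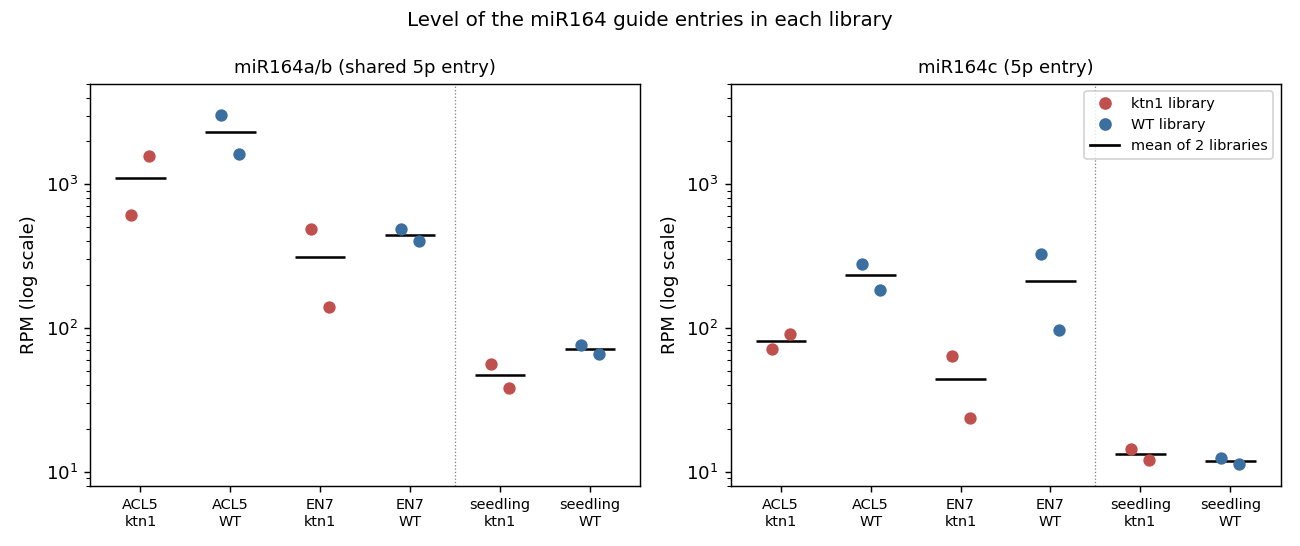
RPM (log scale) of miR164a/b (left) and miR164c (right) in each of 12 libraries, by group; points are libraries, bars the means of 2 libraries, and the dotted line parts the AGO1 libraries from the seedlings. For miR164a/b the 4 ACL5 libraries (612 to 3018 RPM) lie above the 4 EN7 libraries (140 to 489 RPM), and for miR164c the 4 ktn1 AGO1 libraries (23.8 to 91.5 RPM) lie below the 4 WT ones (96.4 to 327 RPM).

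Ordered by mean, miR164a/b was lowest in EN7 ktn1 (314 ± 246 RPM), then in EN7 WT (445 ± 62.1 RPM), ACL5 ktn1 (1097 ± 686 RPM) and ACL5 WT (2317 ± 992 RPM; SD, n = 2 each). Both EN7 groups overlapped. The ranges of both ACL5 groups did not, but their nearest libraries, at 1582 RPM in ktn1 and 1616 RPM in WT, were closer together than the replicates of either group. For miR164c the order was EN7 ktn1 (44.0 ± 28.4 RPM), ACL5 ktn1 (81.5 ± 14.2 RPM), EN7 WT (212 ± 163 RPM) and ACL5 WT (233 ± 67.3 RPM; SD, n = 2 each), and only both WT groups overlapped. The replicates differed most in EN7: by 3.48-fold for miR164a/b in EN7 ktn1 and by 3.40-fold for miR164c in EN7 WT.

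AGO1-bound miR164a/b was higher in ACL5 than in EN7 libraries. Averaged over genotypes, the difference was 2.11 on the log2(RPM + 1) scale (SE 0.56, adjusted p = 0.034, limma), a 4.32-fold difference, with all 4 ACL5 libraries above all 4 EN7 libraries. The difference was 1.47 larger than the median of the 86 entries tested, which was itself 0.64. In this comparison 25.6% of entries passed the test, 16 higher (18.6%) and 6 lower (6.98%) in ACL5, and 14.0% were higher in ACL5 with no overlap. That split moved with the scaling, with 34 higher and 4 lower at equal miRNA sums, 15 higher and 10 lower at equal sums outside miR165 and miR166, and 14 higher and 12 lower after median scaling. The median of all entries was 1.21, 0.36 and 0.17 under these 3 rescalings. miR164a/b passed under each, at 1.47, 1.46 and 1.53 above that median. Without EN7 WT replicate 1 and ACL5 ktn1 replicate 2, the difference was 1.84, but that pair was picked by its place on the layer split. Leaving out single libraries gave 1.66 to 2.56. The call was lost without ACL5 WT replicate 1 (adjusted p = 0.129), ACL5 WT replicate 2 (0.094), ACL5 ktn1 replicate 2 (0.077), EN7 WT replicate 2 (0.055) or EN7 ktn1 replicate 2 (0.096).

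With the genotypes taken apart, neither layer difference of miR164a/b passed. The log2 difference between ACL5 and EN7 was 1.91 in ktn1 (95% interval 0.037 to 3.78, adjusted p = 0.143) and 2.32 in WT (95% interval 0.45 to 4.19, adjusted p = 0.183, limma for both). In these comparisons 16.3% of entries passed in ktn1 and 3.49% in WT. The ranges of miR164a/b did not overlap in either genotype, which held for 53.5% of entries in ktn1 and 30.2% in WT, counting those higher in ACL5. At equal miRNA sums the ktn1 difference was 2.71 and passed (adjusted p = 0.027, limma), as did 34 of 87 entries, 31 of them higher. The median of all entries in ktn1 was 1.67 there, against 0.91 as reported. miR164a/b minus that median was 1.04, against 0.99 as reported. After median scaling the differences were 1.19 in ktn1 and 2.21 in WT, and without EN7 WT replicate 1 and ACL5 ktn1 replicate 2 they were 1.22 (adjusted p = 0.299) and 2.46 (adjusted p = 0.111). In ktn1 the difference was 1.22 without ACL5 ktn1 replicate 2 and 1.01 without EN7 ktn1 replicate 2. The other libraries left out gave 2.59 (ACL5 ktn1 replicate 1) and 2.80 (EN7 ktn1 replicate 1).

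For miR164c no layer difference passed the test. Its libraries ran from 71.5 to 280 RPM in ACL5 and from 23.8 to 327 RPM in EN7. Averaged over genotypes, ACL5 minus EN7 was 0.69 (95% interval -0.63 to 2.02, adjusted p = 0.345, limma), close to the median of all entries. The interval is wide and does not show that the layers are alike. In ktn1 it was 1.03 (adjusted p = 0.362), against a median of 0.91 over all entries. The layers did not overlap there, which held for 53.5% of entries, counting those higher in ACL5. In WT it was 0.36 (adjusted p = 0.784), and the layers overlapped. The WT value turned to -0.52 without EN7 WT replicate 2 and was 1.23 without EN7 WT replicate 1. Without that library and ACL5 ktn1 replicate 2, the averaged value was 1.04 (adjusted p = 0.163) and the ktn1 value 0.85.

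For the summed family, which held 1182 ± 699 RPM in ACL5 ktn1, 2557 ± 1062 RPM in ACL5 WT, 359 ± 275 RPM in EN7 ktn1 and 658 ± 226 RPM in EN7 WT (SD, n = 2 each), ACL5 minus EN7 was 1.88 (SE 0.60, adjusted p = 0.052, limma over 55 families, of which 14.5% passed), just short of the threshold. With a replicate block the adjusted p was 0.038. The pair of libraries named above was picked by its place on the layer split, so leaving it out is no check of this difference. Leaving out 1 library at a time gave differences of 1.45 to 2.32 and adjusted p-values from 0.038, without EN7 WT replicate 1, to 0.201, without ACL5 WT replicate 1. Of these 8 fits, only the one without EN7 WT replicate 1 passed.

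**Figure D2:**
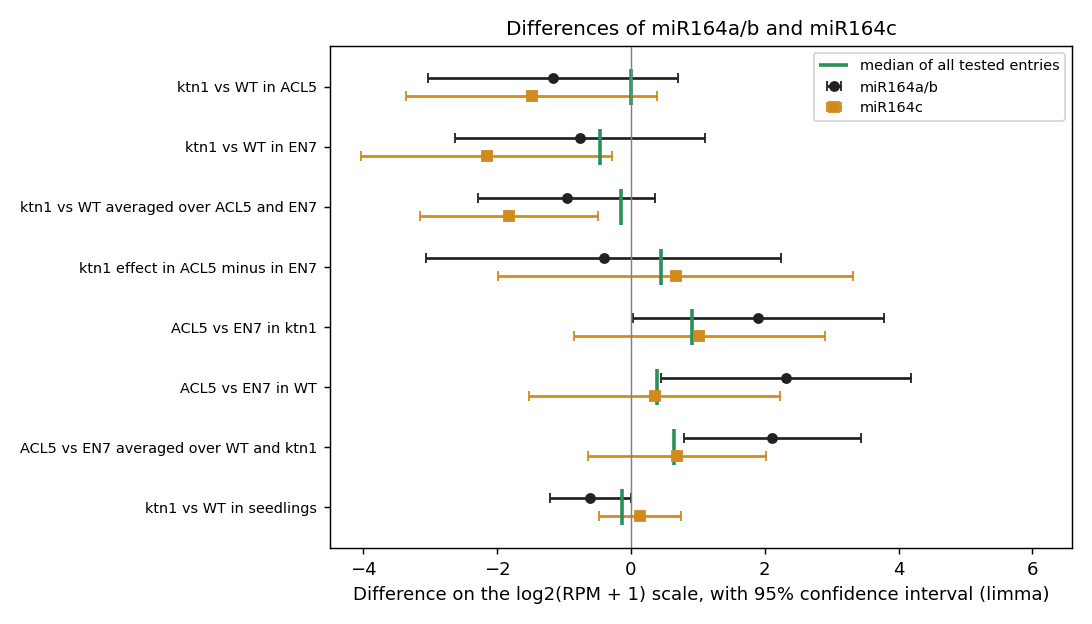
Differences of miR164a/b (black circles) and miR164c (orange squares) in 8 comparisons on the log2(RPM + 1) scale, with 95% confidence intervals from limma; green bars mark the median of all tested entries (86 in AGO1 libraries, 62 in seedlings). For miR164a/b the averaged layer difference is 2.11, while for miR164c that difference (0.69) lies at the median (0.64).

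The balance between the guide entries was compared within libraries, where any scaling of a whole library drops out apart from the pseudocount. miR164c made up 10.4% and 5.47% of the 5p reads (miR164c plus miR164a/b) in ACL5 ktn1 and 8.50% and 10.3% in ACL5 WT. In EN7 its share was 11.6% and 14.5% in ktn1 and 40.1% and 19.4% in WT. Each ACL5 library was below each EN7 library. The log2 ratio of miR164c to miR164a/b differed by -1.42 (ACL5 minus EN7), averaged over genotypes (exact two-sided permutation p = 0.0556, within genotypes). This is the smallest p that the 36 arrangements allow, so the test could not pass 0.05, and adjusted over 7 comparisons of this ratio the p was 0.389. The difference was -0.88 in ktn1 and -1.96 in WT.

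EN7 WT replicate 1 held the highest share and is 1 of the 2 libraries that stood apart from their groups. Without it the difference of the log2 ratio between layers was -1.05. Without it and ACL5 ktn1 replicate 2 the difference was -0.80, and the layers still did not overlap. How reads were assigned to entries as close in sequence as these is not given in the sources used here, so the split of reads between them is uncertain.

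**Figure D3:**
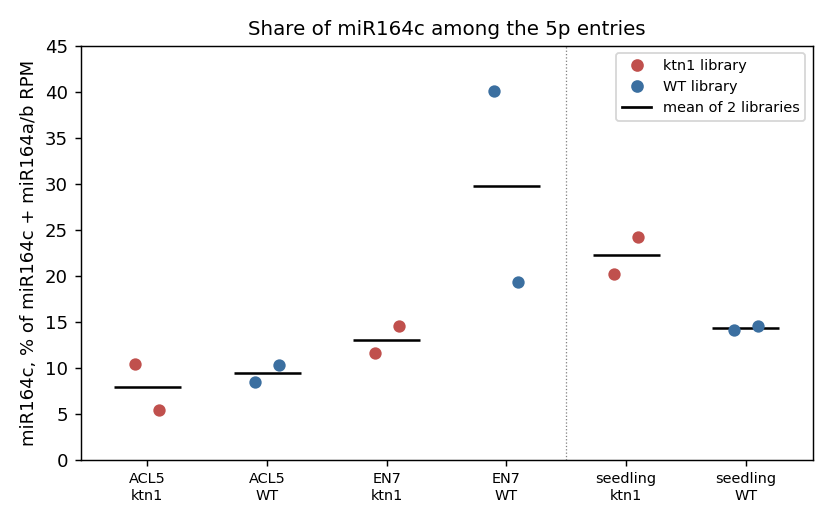
Share of miR164c in the sum of miR164c and miR164a/b, in percent of RPM, for each library; points are libraries and bars the means of 2. The 4 ACL5 libraries lie between 5.47% and 10.4% and the 4 EN7 libraries between 11.6% and 40.1%.

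The comparison of ktn1 with WT gave lower values of both guide entries in the AGO1 libraries, none of which passed the test. For miR164c the log2 difference was -1.48 in ACL5 (95% interval -3.36 to 0.39, adjusted p = 0.422) and -2.15 in EN7 (95% interval -4.03 to -0.28, adjusted p = 0.198, limma for both). Averaged over lines it was -1.82 (SE 0.56, adjusted p = 0.094, limma), against a median of -0.15 over all entries, and 10.5% of entries passed. In RPM, all 4 ktn1 libraries were below all 4 WT libraries, which held for 4.65% of entries in that direction. As a share of all miRNA RPM, ACL5 ktn1 replicate 2 (0.0285%) was above EN7 WT replicate 2 (0.0259%). Only 10 of the other entries tested had a more negative averaged difference. The averaged difference passed in 2 of its 19 recomputed values: at equal miRNA sums (-2.30, adjusted p = 0.039, limma) and without EN7 WT replicate 2 (-2.26). Equal sums moved the median of all entries to -0.62, and miR164c minus that median was -1.69, against -1.67 as reported. At equal sums outside miR165 and miR166 the averaged difference was -2.05 and after median scaling -1.54, without passing. It was -1.47 (adjusted p = 0.187) without EN7 WT replicate 1 and ACL5 ktn1 replicate 2. The EN7 difference alone was -3.03 and passed without EN7 WT replicate 2 (adjusted p = 0.046), and was -1.28 without EN7 WT replicate 1 (adjusted p = 0.705) and -1.46 without EN7 ktn1 replicate 2 (adjusted p = 0.796). In ACL5 it was -1.66 (adjusted p = 0.235) without the pair that stood apart.

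For miR164a/b the log2 difference between ktn1 and WT was -1.16 in ACL5 (adjusted p = 0.584) and -0.76 in EN7 (adjusted p = 0.676, limma for both). Averaged over lines it was -0.96 (95% interval -2.28 to 0.36, adjusted p = 0.411). In these comparisons 4.65% of entries passed in ACL5 and 6.98% in EN7. The median of all entries in EN7 was -0.47, from which miR164a/b differed by -0.29 and miR164c by -1.69. In ACL5 the value was -0.48 without ktn1 replicate 1, -1.85 without ktn1 replicate 2 and -0.71 without WT replicate 1. In EN7 it was 0.14 without ktn1 replicate 2 and -1.65 without ktn1 replicate 1. Without EN7 WT replicate 1 and ACL5 ktn1 replicate 2 the values were -1.85 in ACL5 (adjusted p = 0.235), -0.61 in EN7 (adjusted p = 0.804) and -1.23 on average (adjusted p = 0.297). The genotypes did not overlap in ACL5 and overlapped in EN7. Of all entries, 23.3% were lower in ktn1 without overlap in ACL5 and 34.9% in EN7.

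Whether the ktn1 difference itself differed between lines was tested as ACL5 minus EN7. The value was -0.41 for miR164a/b (95% interval -3.05 to 2.24) and 0.67 for miR164c (95% interval -1.98 to 3.32), each with an adjusted p of 0.970 (limma; 2.33% of entries passed). Without EN7 WT replicate 1 and ACL5 ktn1 replicate 2 the values were -1.23 for miR164a/b and -0.38 for miR164c, and leaving out single libraries turned the sign of both. The intervals are wide, so neither a like nor an unlike change in the layers is shown. The log2 ratio of miR164c to miR164a/b differed by -0.86 (ktn1 minus WT) on average in AGO1 libraries (exact two-sided permutation p = 0.167), with differences of -0.32 in ACL5, where the genotypes overlapped, and -1.40 in EN7, where they did not. Without EN7 WT replicate 1 and ACL5 ktn1 replicate 2 the average was -0.24.

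In seedlings, total miR164a/b averaged 47.2 ± 13.0 RPM in ktn1 and 71.0 ± 6.51 RPM in WT (SD, n = 2 each), and the genotypes did not overlap. The log2 difference was -0.60 (95% interval -1.20 to -0.0042, adjusted p = 0.50, limma) against a median of -0.13 over the 62 entries tested, of which 1.61% passed. Of these entries, 35.5% were lower in ktn1 with no overlap. miR164c averaged 13.2 ± 1.54 RPM in ktn1 and 11.9 ± 0.776 RPM in WT (SD, n = 2 each), a log2 difference of 0.14 (95% interval -0.47 to 0.75, adjusted p = 0.854, limma). The spread in this fit came almost wholly from the trend over entries of the same libraries, so its intervals may be too narrow. miR164c made up 20.2% and 24.2% of the 5p reads in ktn1, against 14.1% and 14.6% in WT. The log2 ratio, ktn1 minus WT, was 0.74 (exact two-sided permutation p = 0.333, the smallest that 2 libraries against 2 allow).

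The opposite arm was scarce beside AGO1. miR164b-3p held 2.31 and 3.20 RPM in ACL5 ktn1 and 8.07 and 3.79 RPM in ACL5 WT. In EN7 it held 1.00 and 0.392 RPM in ktn1 and 0.509 and 0.720 RPM in WT. Each ACL5 library, at 21 to 56 reads, was above each EN7 library, at 4 to 13 reads, as were 14.0% of the entries tested. None of the 8 libraries reached 10 RPM, so the entry was not tested.

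miR164c-3p gave 12 and 0 reads in ACL5 ktn1 and 7 reads in each ACL5 WT library. In EN7 it gave 2 and 0 reads in ktn1 and 11 and 0 reads in WT. The limit that a count of 0 allows was set at 3 reads, or 0.231 to 0.517 RPM, and 4 of the 8 libraries were under it. The entry was below 10 RPM in the AGO1 libraries, so no layer or genotype difference was tested for it. In seedlings it held 6.07 and 5.15 RPM in ktn1, against 3.85 and 4.86 RPM in WT, and the genotypes did not overlap, which held in this direction for 9.68% of the entries tested. It was below 10 RPM and not tested there.

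Set against its own guide, the 3p arm took another share in AGO1-bound than in total RNA. miR164c-3p made up 0% to 1.81% of the reads of both arms in the 8 AGO1 libraries, and 23.7% to 30.0% in the 4 seedling libraries. The exact (Clopper-Pearson) 95% intervals, which cover counting error only, reached at most 3.14% in AGO1 libraries and came down to 18.3% in seedlings. miR164b-3p made up 0.104% to 0.376% of the reads with miR164a/b in AGO1 libraries and 2.26% to 4.39% in seedlings. The guide entry also holds miR164a reads, so this is no share of the MIR164b precursor alone. Assay, tissue and age all differ between these sets and cannot be told apart, so no test was made between them. Between ktn1 and WT the seedling shares of miR164c-3p were alike in size, at 29.8% and 29.8% in ktn1 and 23.7% and 30.0% in WT.

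**Figure D4:**
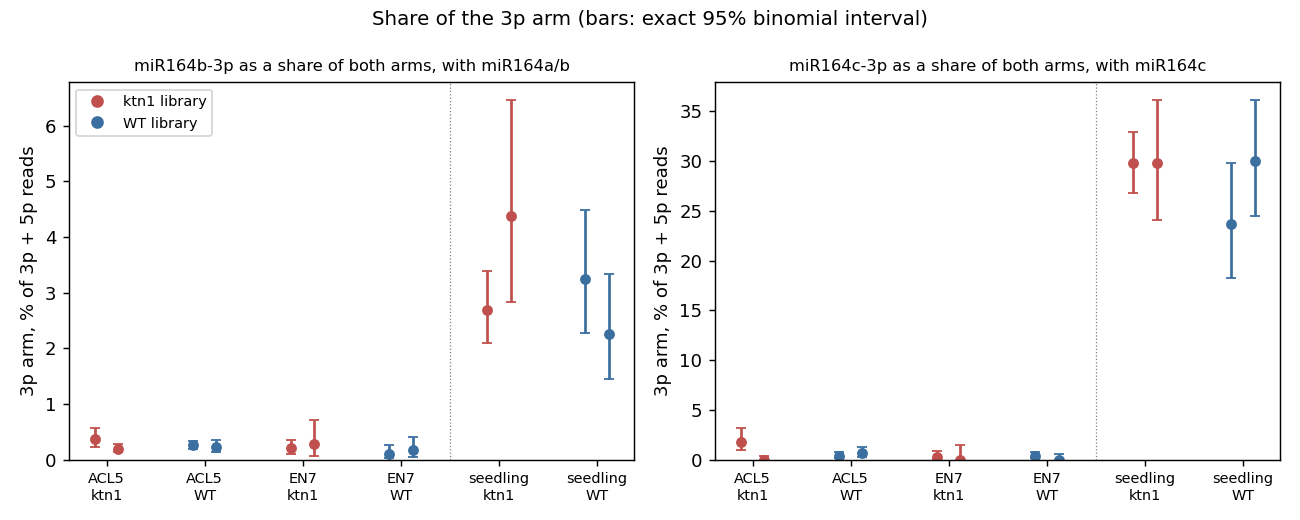
Share of the 3p arm in the reads of both arms, in percent, for miR164b-3p with miR164a/b (left) and miR164c-3p with miR164c (right); points are libraries and bars exact 95% binomial intervals, and the vertical axes differ. miR164c-3p lies at 23.7% to 30.0% in seedlings and at most at 1.81% in AGO1 libraries.

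Of 12 conserved families that regulate transcription factors, 11 could be tested beside miR164. In the averaged comparison of ACL5 with EN7, none of them passed as higher, against 9.09% of all families, and 1, miR165/miR166, passed as lower, against 5.45%. The median of the 11 was 0.35, against 0.36 over all 55 families. The miR164 family was further toward ACL5 (1.88) than each of the 11, while miR165/miR166 differed more in size, toward EN7. The nearest were miR156, which acts on SPL genes of the age pathway (1.66, adjusted p = 0.051), and miR169, which acts on NF-YA genes (1.65, adjusted p = 0.052, limma for both). The intervals of all 3 overlap. miR169 was scarce, with means of 22.1 RPM in ACL5 ktn1, 8.36 RPM in ACL5 WT, 5.14 RPM in EN7 ktn1 and 2.89 RPM in EN7 WT. At such levels the pseudocount of 1 weighs on its difference. The family of miR165 and miR166, which acts on HD-ZIP III genes that pattern the stele, differed by -2.99 (SE 0.13, adjusted p = 1.1e-07, limma). In ktn1 alone, 3 of the 11 families were further toward ACL5 than miR164 (1.83), and in WT alone none was.

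In the averaged comparison of ktn1 with WT, no family of the list passed, its median was -0.063 against -0.20 over all families, and the miR164 family was at -1.13 (adjusted p = 0.320, limma; 5.45% of families passed). In each line alone, 1 family of the list passed, miR165/miR166, at -1.62 in ACL5 (adjusted p = 0.00048) and 1.49 in EN7 (adjusted p = 0.00093, limma for both). The miR164 family was at -1.19 and -1.08 there (adjusted p = 0.611 and 0.569), and 3.64% of families passed in each line. No family of the list passed in seedlings, where the list's median was -0.15 and that of all 38 families -0.17. There the limma test called 0 families (0.0%), with 8 at an unadjusted p under 0.05, and the miR164 family was at -0.41 (adjusted p = 0.414).

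**Figure D5:**
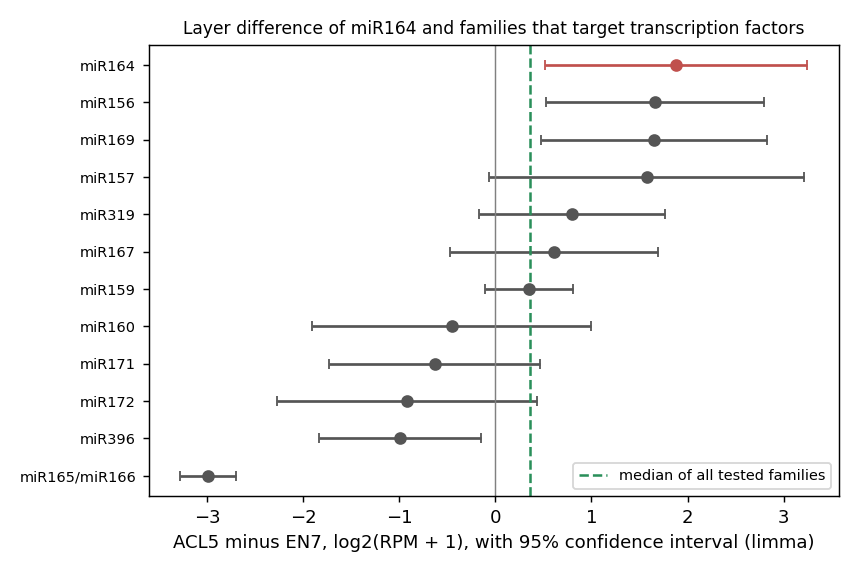
Difference of ACL5 minus EN7, averaged over genotypes, on the log2(RPM + 1) scale with 95% confidence intervals from limma, for the miR164 family (red) and 11 families that target transcription factors; the dashed line is the median of all 55 tested families (0.36). miR164 stands at 1.88, miR156 at 1.66 and miR165/miR166 at -2.99.

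The entries whose profile over the 8 AGO1 libraries was most like that of miR164a/b were found by the mean absolute difference of log2(RPM + 1) values, each centred on its own mean. All points share the same 8 libraries, and no test was made. The nearest of 84 other entries was miR171a-5p/miR170-5p, the 5p arm of the SCARECROW-LIKE regulators (0.59). It held 8.36 and 25.3 RPM in ACL5 ktn1, 12.2 and 14.1 RPM in ACL5 WT, 2.38 and 2.06 RPM in EN7 ktn1 and 2.80 and 3.03 RPM in EN7 WT. Like miR164a/b, it was higher in replicate 2 of ACL5 ktn1, which stood apart from its group. Each of its ACL5 libraries was above each of its EN7 libraries, as held for 14.0% of the entries tested. It was chosen for its likeness over these libraries, so the shared pattern is no support for the layer difference.

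Next were miR403-5p (0.61), the partner strand of the AGO2 regulator miR403, and miR163 (0.61), which regulates methyltransferase genes. miR403-5p held 48.9 and 72.5 RPM in ACL5 ktn1, 84.5 and 76.5 RPM in ACL5 WT, 20.9 and 6.08 RPM in EN7 ktn1, and 113 and 23.2 RPM in EN7 WT. Its highest library was EN7 WT replicate 1, so its layers overlapped. miR163 held 1951 and 2142 RPM in ACL5 ktn1, 5737 and 3831 RPM in ACL5 WT, 1005 and 745 RPM in EN7 ktn1 and 1912 and 2286 RPM in EN7 WT. The layers of miR163 overlapped too, since EN7 WT replicate 2 was above each ACL5 ktn1 library. miR164c was at a distance of 0.76 from miR164a/b, with 8 of the 84 entries closer and a median of 1.22.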

How the data were processed

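Small RNA libraries were made with a NEBNext kit, per the labels. The submitters' processing notes name cutadapt, Bowtie and TAIR10, without versions or roles; the miRNA annotation and the handling of mismatches and reads with several matches are not given in the sources used here. The authors deposited RPM values, 1 file per library, as judged from the values. In each file 100% of the values above 0 were multiples of the lowest within 0.01 reads; read numbers were inferred from this step and served for shares and floors only. No pair of libraries held identical values. Entries missing from a file were taken as 0. Locus tags came from the RefSeq table of TAIR10.1, used for names only.

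Values were tested as log2(RPM + 1) with limma 3.58.1 in R 4.3.3 (mean-variance trend, two-sided, Benjamini-Hochberg over all entries or families, threshold 0.05) on entries that reached 10 RPM in 2 or more libraries of the fit, for the 8 AGO1 and the 4 seedling libraries apart. Family values were sums per miRNA number, with miR165 and miR166 as 1. Averages over lines or genotypes were contrasts of the same fit. The ratio of miR164c to miR164a/b was compared by an exact permutation test in Python 3.11.15 with SciPy 1.17.1. The fits were tested on simulated data. Members and lists were chosen with earlier results of these data known. Besides the 4 entries, the 3 most alike entries and each listed family that passed were named; the listed families miR156 and miR169 were named after their values were seen. Alternatives were filters, pseudocounts, rescalings, no trend, a replicate block and libraries left out. The planned count test was not run, since the files hold RPM.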

Additional observations from a re-analysis of the deposited data

Results flagged for a closer look

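The log2 ratio of miR164c to miR164a/b moved in opposite directions with genotype in EN7 AGO1 libraries and in seedlings. ktn1 minus WT was -1.40 in EN7, with both ktn1 libraries below both WT libraries, and 0.74 in seedlings, with both ktn1 libraries above both WT libraries. For each the exact two-sided permutation p was 0.333, the smallest that 2 libraries against 2 allow. The difference between the sets was not tested, and they differ in assay, tissue and age. The EN7 value rests in part on WT replicate 1, a library that stood apart from its group, where miR164c made up 40.1% of the 5p reads against 19.4% in WT replicate 2.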

How the results depend on the processing

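Of 421 recomputed values, 390 kept their direction and their side of the threshold. That total is no measure of robustness, since nearly all results behind it had not passed as reported and mostly stayed so. The ratio tests among them could not pass with so few libraries. Only the averaged layer difference of miR164a/b had passed, and it lost its call in 5 of its 19 recomputed values. With a replicate block, the averaged layer difference of the family was 1.88 and passed (adjusted p = 0.038, limma). It also passed with a pseudocount of 5 (1.87), without the trend (1.88) and with the crossed pairing (1.88). The block changed no other call of a miR164 value. The ratio's layer difference stayed at -1.42 (exact permutation p = 0.125, the smallest that the paired test allows). The labels do not say that a number marks a shared batch. Over entries, the deviations of same-numbered libraries from their group means correlated at -0.48 between genotypes in ACL5 and 0.42 in EN7. They correlated at -0.17 between layers in WT, 0.013 between layers in ktn1 and 0.18 between genotypes in seedlings. The crossed pairing, with the numbers of ACL5 WT exchanged, called 30 entries in the averaged layer comparison, against 27 with the block as labelled and 22 without. For families the block called 15 against 8 without it in that comparison, 5 against 3 for the averaged ktn1 comparison and 5 against 2 in EN7, and in seedlings it called 0 entries against 1. At equal miRNA sums the layer difference passed in ktn1 for miR164a/b (2.71) and the family (2.63), as for 34 of 87 entries. It also passed for the averaged family (2.44), as did the averaged ktn1 difference of miR164c (-2.30). There the ktn1 difference between lines turned to 0.077 for miR164a/b and 0.38 for the family. The cause was not tested.

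Leaving out 1 library at a time gave 1.66 to 2.56 for the averaged layer difference of miR164a/b and 1.45 to 2.32 for that of the family, -2.26 to -1.38 for the averaged ktn1 difference of miR164c and -3.03 to -1.28 for that in EN7. Signs turned in the ktn1 difference between lines (-1.30 to 0.49 for miR164a/b, -0.21 to 1.55 for miR164c, -0.98 to 0.76 for the family), the EN7 difference of miR164a/b (-1.65 to 0.14) and the WT layer difference of miR164c (-0.52 to 1.23). Without EN7 WT replicate 1 and ACL5 ktn1 replicate 2, chosen after seeing the data, the averaged family difference was 1.74 and the ktn1 difference between lines was -0.38 for miR164c and -1.11 for the family. Counts of entries called ranged from 6 to 46 (22 as reported) for the averaged layer comparison and from 4 to 26 (9) for the averaged ktn1 comparison. Between the layers they ranged from 2 to 36 (14) in ktn1 and from 0 to 18 (3) in WT. For ktn1 against WT they ranged from 1 to 9 (4) in ACL5, from 5 to 19 (6) in EN7 and from 0 to 10 (1) in seedlings, and for the difference between lines from 0 to 6 (2). Families called ranged from 4 to 27 (8) between the layers on average, from 3 to 19 (6) in ktn1 and from 1 to 9 (2) in WT, and for ktn1 against WT from 1 to 16 (3) on average, from 1 to 6 (2) in ACL5, from 0 to 12 (2) in EN7 and from 0 to 3 (0) in seedlings. The planned edgeR alternative was not run. Low depth limits the 3p entries, at 0 to 56 reads in AGO1 libraries.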
